A study of Homo sapiens with 12 samples.

Results

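The comparison is that of estradiol with its ethanol vehicle in T47D cells that carry ectopic HOXB13. T47D is an established human breast cancer cell line of luminal type that expresses the estrogen receptor, and HOXB13 encodes a homeodomain protein from the posterior end of the HOXB cluster. The libraries were chosen by their labels alone: 3 of T47D-HOXB13 cells given 2 nM estradiol for 24 h and 3 of T47D-HOXB13 cells given ethanol for 24 h, which makes 6 of the 12 samples in the series. The other 6 are T47D cells labelled normal or wild type under the same treatments. These control libraries also enter the filter on low counts and the fit, which was made over all 4 groups. Their own response to estradiol is described only where the 2 genotypes are compared.

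Cells of both genotypes were plated in phenol-free medium with ordinary serum and then kept for 72 h in medium with 10% charcoal-stripped serum, from which steroids have been adsorbed, so that every library comes from hormone-deprived cells. The labels do not give the vector or promoter that drives HOXB13, whether the HOXB13 cells were a clone or a pool, or whether the control cells carried an empty vector. They number the replicates 1 to 3 without saying whether these were separate cultures, and the p-values below therefore rest on the spread among these libraries, part or all of which may be technical.

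Estradiol enters the cell and binds the estrogen receptor, a nuclear receptor that then recruits coactivators to estrogen response elements, most of which lie in enhancers far from the genes they serve. In luminal breast cancer cells the hormone drives the passage from G1 into S phase through MYC, cyclin D1 and the E2F factors, and it also represses genes, among them several growth factor receptors and genes of quiescent cells. In this hormone-deprived culture the vehicle group therefore shows cells without added estradiol.

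The 6 libraries held 17679824 to 20702640 counts, and levels are given as counts scaled to effective library size (CPM), as single values in the order of replicates 1, 2 and 3 or as mean ± SD over 3 libraries. CPM is not corrected for transcript length, so levels are compared between libraries and not between genes. HOXB13 itself had 112, 106 and 108 counts in vehicle and 110, 92 and 97 in estradiol, against 2, 0 and 1 in the control cells in vehicle and 0 in all 3 control libraries in estradiol. In the HOXB13 cells its level was 5.56, 5.6 and 5.65 CPM in vehicle and 5.84, 4.79 and 5.25 CPM in estradiol. The groups overlapped, and the log2 fold change with estradiol was −0.08 ± 0.24 (SE), with a 95% interval of −0.61 to 0.45. The 4 libraries numbered 2, 1 from each group, stood apart from the other 8 on the second principal component (17.8% of the variance), so results that rest on them are also given without them or with the replicate number as a block.

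The labelled cell type was checked against marker genes. The luminal markers together took 22500 to 26596 CPM in vehicle and 22897 to 29646 CPM in estradiol, with the luminal keratins KRT8, KRT18 and KRT19, the pioneer factor FOXA1 and GATA3 all present in every library. Of the basal markers, KRT5, KRT14 and TP63 did not exceed 0.52 CPM in any of the 6 libraries, but others were present: P-cadherin CDH3 at 67.4 to 103 CPM, ACTA2 at 26.4 to 34.9 CPM, EGFR at 21.2 to 27.7 CPM and MYLK at 6.79 to 14.7 CPM. The basal list summed to 165 to 181 CPM in vehicle and 134 to 157.5 CPM in estradiol. Of its 10 tested members 0 rose and CDH3 fell (2 fell with the replicate block and without estradiol library 3), and CDH3 was not called without estradiol library 1 (adjusted p = 0.0912). Among markers of blood, vessel, stroma and fat, the endothelial cadherin CDH5 and the fibroblast receptor PDGFRA had 0 counts throughout, and the summed level of the list was 86.7 to 98.5 CPM in vehicle and 97.4 to 104 CPM in estradiol, most of it from COL1A1 and ACTA2. Of the blood and stroma list 1 of 8 tested members rose and 0 fell (1 with the block). The prostate kallikrein KLK2, which HOXB13-positive prostate cells express, had 0 counts in all 6 libraries. These are bulk libraries, in which fewer cells of a type and less RNA per cell cannot be told apart.

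Estradiol moved 2012 of 14799 tested genes in the HOXB13 cells, or 13.6%. With an adjusted p under 0.05 (edgeR's quasi-likelihood test, Benjamini-Hochberg over all tested genes) as the call, 1068 genes rose (7.22%) and 944 fell (6.38%), and in what follows rose and fell are used only of genes that passed. At least a 2-fold change was seen in 309 of those that rose (2.09%) and in 159 of those that fell (1.07%), and at least a 4-fold change in 60 and 16. The median log2 fold change over all tested genes was −0.01, with quartiles of −0.24 and 0.23. The changes were mostly seen in every library: of the 2012 genes, 1994 had no overlap between the 3 estradiol and the 3 vehicle values, where 2258 tested genes (15.3%) lay wholly higher and 2172 (14.7%) wholly lower in estradiol whether or not they passed. The count depended on single libraries: 689 rose and 539 fell without vehicle library 1, 701 and 527 without estradiol library 1, and 564 fell without estradiol library 3. A fit that also held the replicate number as a block had 2297 genes higher (15.5%) and 2222 lower (15%), with all 2012 among them. Rose and fell refer to the fit without the block, and a list's block count is given beside its count where the 2 differ by more than 1.5 times. A list whose shares lie near 7.22% higher and 6.38% lower does not stand out from all tested genes.

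**Figure D1:**
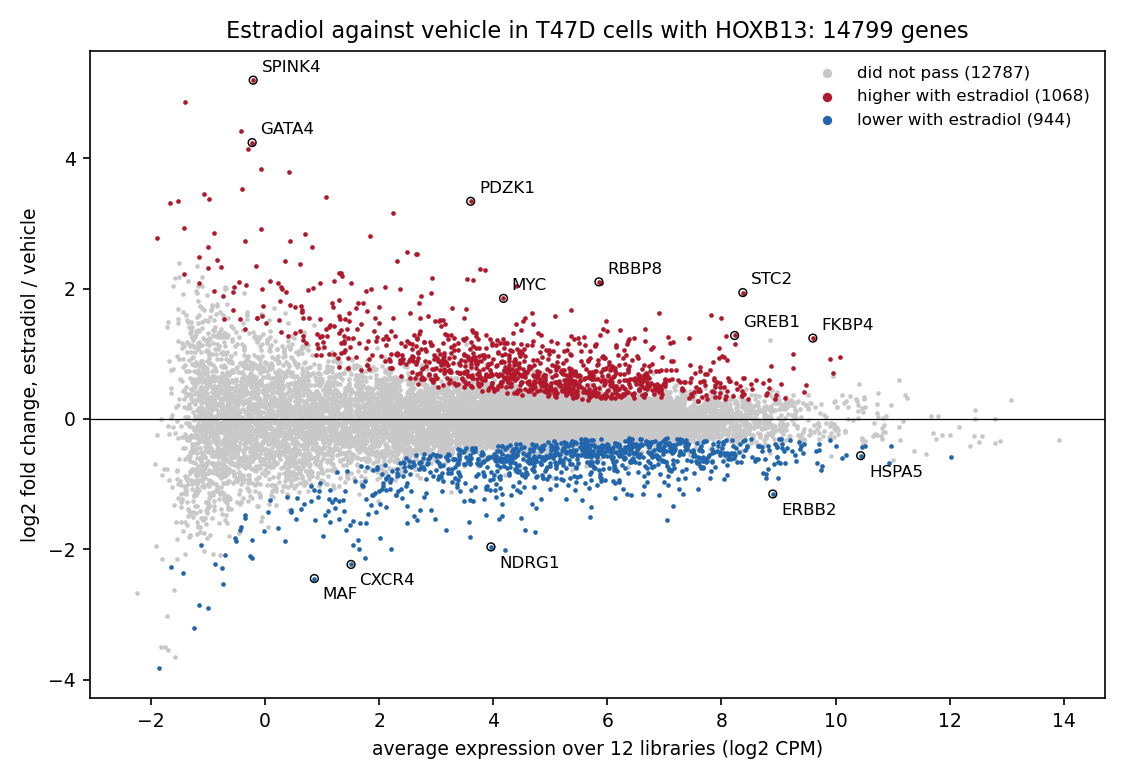
Each point is 1 of 14799 tested genes, placed by its average expression over all 12 libraries (log2 CPM) and by its log2 fold change with estradiol in HOXB13 cells; red genes rose (1068), blue genes fell (944) and grey genes did not pass. SPINK4 lies at 5.19 and MAF at −2.45, and genes of high expression such as STC2 and FKBP4 are among those that rose. SPINK4 was nearly absent from the vehicle libraries, so its fitted value depends on the prior count.

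SPINK4, a secreted protease inhibitor of the Kazal type, had the largest increase among the named genes. Its level was 0, 0.106 and 0.209 CPM in vehicle and 4.41, 4.64 and 2.98 CPM in estradiol. It was thus close to silent without the hormone and present in every estradiol library, with a log2 fold change of 5.19 ± 0.51 (adjusted p = 2.5e-05). The vehicle level rested on a few counts, so the size of this change depends on the prior count. So low a gene passed the filter on low counts only through libraries of the other groups. MAF, a basic leucine zipper transcription factor, went the other way, from 4.81, 3.12 and 3.45 CPM to 0.744, 0.469 and 0.867 CPM. The groups did not overlap, and the log2 fold change was −2.45 ± 0.39 (adjusted p = 9.4e-04). CXCR4, the receptor of the chemokine CXCL12, was at 6.75, 4.54 and 6.7 CPM in vehicle and 1.59, 1.3 and 0.921 CPM in estradiol, a log2 fold change of −2.23 ± 0.30 (adjusted p = 2.9e-04). The lowest vehicle value of CXCR4 was above the highest estradiol value. These 3 genes were known as responders from earlier results of the same libraries, so their direction is a description and no independent support.

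The ligand of CXCR4 moved in the opposite direction. CXCL12, a secreted chemokine, was at 207, 107 and 179 CPM in vehicle and 537, 427 and 473 CPM in estradiol. Every estradiol value lay above every vehicle value, with a 2.92-fold rise of the mean and a log2 fold change of 1.55 ± 0.19 (adjusted p = 1.5e-04). Of the 8 tested chemokines and chemokine receptors, CXCL12 was the member that rose and CXCR4 the member that fell, and the other 6 did not pass.

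**Figure D2:**
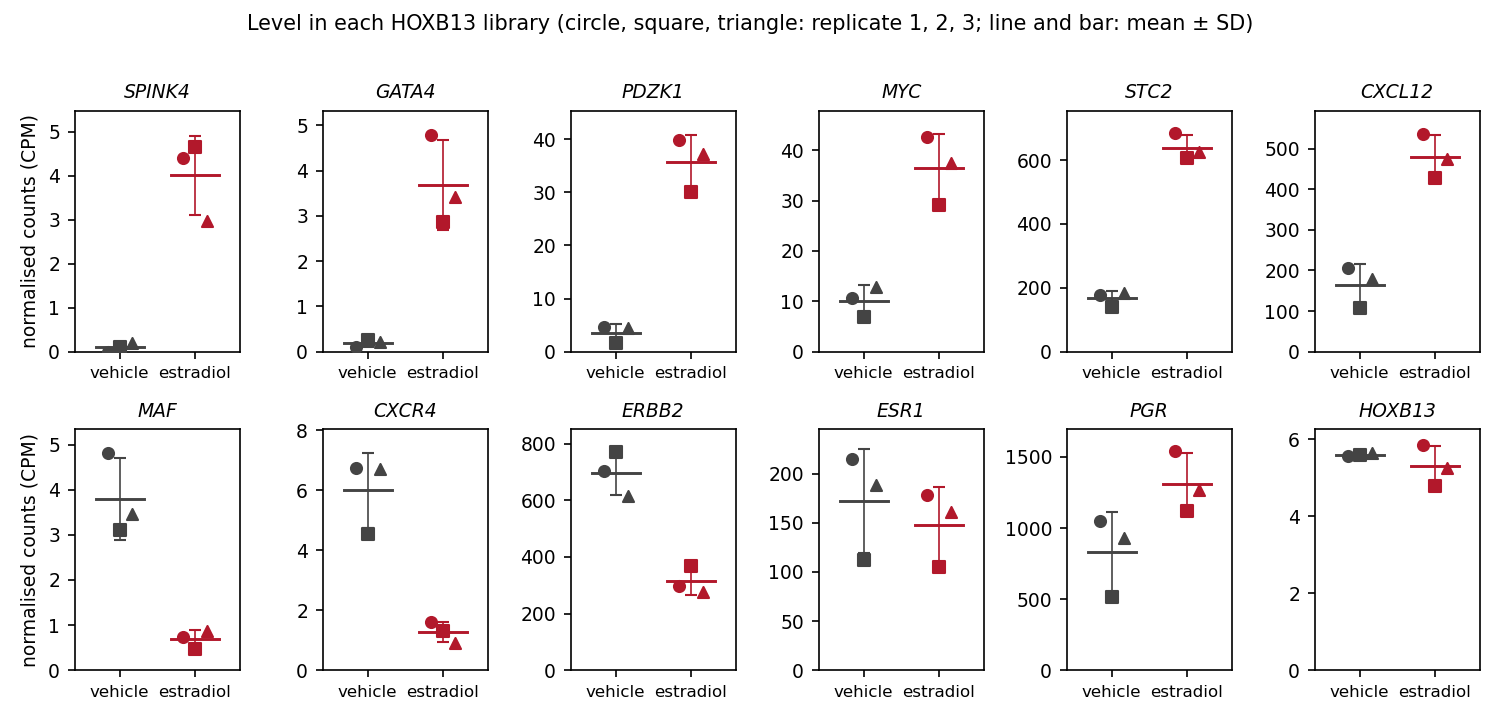
Normalised counts (CPM, linear axes from 0) of 12 genes in each HOXB13 library, with circles, squares and triangles for replicates 1, 2 and 3 and lines and bars for the mean ± SD of 3 libraries. SPINK4, GATA4, PDZK1, MYC, STC2 and CXCL12 lie wholly higher in estradiol and MAF, CXCR4 and ERBB2 wholly lower; ESR1 and HOXB13 overlap, and the library numbered 2 is the lowest of its group for ESR1 and PGR.

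Because these genes have some of the largest changes, the 150 bases before the annotated start of the 3 genes are given, from RefSeq promoters on GRCh38.p14, 5′ to 3′ in the direction of transcription, with any match in capitals. The motifs searched in all promoters, on both strands, were the estrogen response element (GGTCA and TGACC 3 bases apart), its arm GGTCA, the E2F site (TTTGGCGC or TTTCGCGC), the cell cycle homology region (TTTGAA), the CCAAT box (CCAAT), the MYC E-box (CACGTG), the AP-1 site (TGACTCA) and a HOXB13-type site (CCAATAAA), of which the last includes a CCAAT box. SPINK4 lies on the plus strand at chr9:33240017-33240166, MAF on the minus strand at chr16:79600738-79600887 and CXCR4 on the minus strand at chr2:136118150-136118299. The single match is a CCAAT box (ATTGG on this strand) in MAF, 82 to 78 bases before the start.
SPINK4: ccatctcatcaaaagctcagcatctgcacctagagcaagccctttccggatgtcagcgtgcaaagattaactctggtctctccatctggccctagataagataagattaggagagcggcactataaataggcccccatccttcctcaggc
MAF: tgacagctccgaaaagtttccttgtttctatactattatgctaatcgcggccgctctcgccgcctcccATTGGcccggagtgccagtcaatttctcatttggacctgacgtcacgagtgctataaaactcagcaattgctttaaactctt
CXCR4: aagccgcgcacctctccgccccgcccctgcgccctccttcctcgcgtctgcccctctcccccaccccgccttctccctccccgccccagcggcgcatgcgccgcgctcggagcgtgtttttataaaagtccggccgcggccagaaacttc

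The estrogen response element was found in 1 of the 10805 tested genes with a promoter in the RefSeq table (250 bases before to 50 after the start) and in 0 of the 830 promoters of genes that rose and 0 of the 723 of genes that fell. A single arm of it, GGTCA on either strand, was as frequent among genes that rose (33.9%) as among all tested genes (33.9%) and stood at 33.1% among genes that fell. The AP-1 site was in 2.8% of all promoters, 2.29% of those of genes that rose and 3.6% of those of genes that fell, and the HOXB13-type site in 0.731%, 0.602% and 0.83%. A match describes the letters of a window, and a window without one says nothing of binding elsewhere.

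Some genes were close to silent in hormone-deprived HOXB13 cells. Of 259 tested genes below 0.5 CPM in each of the 3 vehicle libraries, 29 rose, where 7.22% of all tested genes rose. Genes this low in vehicle passed the filter on low counts only through libraries of the other groups. The count is therefore a description and cannot be read as a trait of silent genes. GATA4, a zinc finger factor of endoderm and heart, was at 0.0993, 0.264 and 0.209 CPM in vehicle and 4.78, 2.87 and 3.41 CPM in estradiol. EGR3, an immediate-early zinc finger factor, was at 0.149, 0.159 and 0.105 CPM and 3.19, 2.71 and 3.25 CPM. Both were thus nearly absent from each vehicle library and present in each estradiol library, with log2 fold changes of 4.24 ± 0.48 and 4.41 ± 0.56. SEC14L6, a lipid-binding protein of the SEC14 family (4.14 ± 0.41), and the non-coding RNA LINC01016 (3.79 ± 0.44) followed the same pattern. At these depths a vehicle level rests on a few counts, and the fitted fold changes of such genes depend on the prior count.

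Among genes with more expression in vehicle, PDZK1, a scaffold protein of the apical membrane, was at 4.57, 1.59 and 4.39 CPM in vehicle and 39.8, 30.1 and 37.2 CPM in estradiol. STC2, a secreted glycoprotein, was at 178, 139 and 184 CPM and 683, 607 and 626 CPM. The groups were wholly apart for both genes, by 10.2-fold and 3.83-fold of the means. STC2 also had one of the largest increases in absolute level, together with FKBP4, an HSP90 cochaperone of steroid receptors (519 ± 57.3 to 1226 ± 140.2 CPM), SERPINA6, the corticosteroid-binding globulin (751 ± 137 to 1447 ± 137 CPM), SLC9A3R1, a scaffold known as NHERF1 (681 ± 68.7 to 1284 ± 211 CPM), and the beta-tubulin TUBB (760.3 ± 94.8 to 1244 ± 110.4 CPM). On the falling side the largest absolute decreases that remained in every fit without 1 library were in JUP, HSPA5 and PLXNB2, which are described with their groups. Some abundant genes barely moved. EEF1A1, a translation elongation factor, was at 7239, 7852 and 7231 CPM and 6838, 7816 and 7566 CPM, with a 95% interval of the log2 fold change from −0.24 to 0.23, and for YWHAB, a 14-3-3 adaptor, the interval was −0.18 to 0.20. In all, 404 genes had a 95% interval within a 1.2-fold change either way and 6149 within 1.5-fold.

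The estrogen receptor gene itself did not pass. ESR1 was at 215, 113 and 188 CPM in vehicle and 178, 105 and 161 CPM in estradiol, with replicate 2 the lowest in both groups. The log2 fold change was −0.22 ± 0.26 (adjusted p = 0.666; adjusted p = 0.0278 with the replicate block). PGR, which encodes the progesterone receptor, was at 1050, 517 and 932 CPM and 1545, 1120 and 1264 CPM. Its groups were wholly apart, with library 2 the lowest of each. The log2 fold change of 0.65 ± 0.22 passed with the replicate block (adjusted p = 1.1e-04) and not without it (adjusted p = 0.0687), and it also passed when vehicle library 1 was left out (adjusted p = 0.0439). TFF1, a secreted trefoil peptide used as an estrogen marker, was low in these cells, at 0.844, 0.475 and 0.732 CPM in vehicle and 3.45, 2.66 and 2.33 CPM in estradiol, and rose by 2.03 ± 0.46 on the log2 scale (adjusted p = 0.00962). Of the 50 tested genes of a list of estrogen-induced genes, 39 rose, 0 fell and 11 did not pass, with a median log2 fold change of 0.98 (all genes −0.01). This list and the estrogen-repressed list were chosen with earlier results of these data known. Their counts are therefore a description and no independent support. RBBP8, which encodes the end-resection factor CtIP, went from 29.1 ± 4.72 to 125 ± 7.52 CPM, the guanine nucleotide exchange factor homologue RAPGEFL1 from 28.4 ± 7.13 to 120.1 ± 22.8 CPM and PTGES, a prostaglandin E synthase, from 25.1 ± 2.97 to 79.97 ± 8.97 CPM. Of 24 estrogen-repressed genes, 0 rose (2 with the block, 1 without vehicle library 3) and 14 fell (median −0.64), led in p by TGFB3, IL1R1, CCNG2 and ERBB2.

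Nuclear receptors other than ESR1 mostly fell or did not pass. Of 30 tested members 9 fell and 1 rose (median −0.40), and with the replicate block 14 fell and 2 rose; 2 also rose without vehicle library 1. The member that rose was RARA, a retinoic acid receptor, from 101 ± 11.4 to 148 ± 16.2 CPM. RXRA, the shared partner of retinoid, thyroid and vitamin D receptors, was at 339.5, 306 and 329.9 CPM in vehicle and 227, 209 and 213 CPM in estradiol. RARG, another retinoic acid receptor, was at 89, 93.8 and 94.7 CPM and 64.3, 61.4 and 62.4 CPM. The lowest vehicle value was above the highest estradiol value for both, so that 1 retinoic acid receptor rose while another and their common partner fell. NR2F1, the orphan receptor COUP-TF1, fell by 1.09 ± 0.15 on the log2 scale. Among 24 coregulators of the estrogen receptor 3 rose and 3 fell (6 and 8 with the block), with the cofactor GREB1 at 239, 123 and 277 CPM in vehicle and 594, 398 and 559.5 CPM in estradiol and ZNF703, a corepressor, going from 203 ± 12.8 to 452 ± 31.3 CPM. The third that rose was the coactivator NCOA7, which was not called without vehicle library 1 or 2 or estradiol library 1 or 3 (highest adjusted p = 0.122). Of the 3 coregulators that fell, among them NCOA2 and NCOA3, the number called was 0 without vehicle library 1, vehicle library 3 or estradiol library 1 and 1 without estradiol library 2 or 3.

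Transcription factors of the luminal lineage moved both ways. Of 24 tested, 10 fell and 3 rose (median −0.38; 5 rose with the block), and 6 fell without vehicle library 1. TFAP2A, an AP-2 factor, was at 242, 212 and 218 CPM in vehicle and 131, 141 and 122 CPM in estradiol. All 3 estradiol libraries were below all 3 vehicle libraries. ELF5, an ETS factor of the alveolar lineage, fell from 133 ± 10.5 to 83 ± 8.44 CPM. RUNX1, a RUNT factor, rose from 34.5 ± 6.19 to 75.7 ± 14.4 CPM and TFCP2L1, a grainyhead-like factor, from 1.26 ± 0.998 to 8.8 ± 1.53 CPM; the third that rose was MYB, which was not called without estradiol library 1 (adjusted p = 0.0835). Of 16 luminal markers, 7 fell and 0 rose, among them the ETS factor ELF3 (−1.09), SPDEF (−0.77), E-cadherin CDH1 (−0.56) and the claudin CLDN4 (−0.67); 4 fell and 1 rose without vehicle library 1, and 2 rose with the block. The summed level of this list, dominated by keratins, still overlapped between the groups.

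Of 14 tested ERBB receptors and ligands 2 fell, both of them receptors, and 2 rose, both of them ligands (4 fell with the block). ERBB2, the HER2 receptor tyrosine kinase, was at 705, 772 and 616 CPM in vehicle and 296, 369.6 and 277 CPM in estradiol. ERBB3, its dimerisation partner, was at 743, 614 and 711 CPM and 449.7, 427 and 423 CPM. Both receptors were lower in each estradiol library, by 2.22-fold and 1.59-fold of the means (adjusted p = 5.7e-05 and 0.0016). The EGFR ligand AREG, amphiregulin, rose from 0.529 ± 0.145 to 1.88 ± 0.17 CPM, and TGFA, another ligand, from 19.3 ± 3.8 to 29.98 ± 3.57 CPM; TGFA was not called without vehicle library 1 or 2 or estradiol library 1 or 3 (highest adjusted p = 0.122). FGFR4, a fibroblast growth factor receptor, fell from 158 ± 30.1 to 70.7 ± 13.9 CPM. The receptor tyrosine kinase RET and ARTN, a ligand that signals through it, both rose, by 1.11 ± 0.24 and 0.98 ± 0.20 on the log2 scale, and the other 8 of 11 FGF and RET genes did not pass (3 fell with the block). The list stood at 18.2% higher and 9.09% lower, against 7.22% and 6.38% of all tested genes. In the insulin-like growth factor axis 2 of 13 rose (15.4%) and 1 fell (7.69%, near the 6.38% of all tested genes). With the block the counts were 4 and 2, where 15.5% of all tested genes were higher and 15% lower. IGFBP4, a binding protein, rose from 455 ± 12.6 to 784 ± 52.8 CPM. The substrate IRS1 rose but was not called without vehicle library 1 or 2 or estradiol library 1 or 3, and IGFALS, which binds IGF complexes, fell but was not called without vehicle library 1 or 2 or any 1 estradiol library (highest adjusted p = 0.151 and 0.172). JAK1, the kinase of many cytokine receptors, rose from 185 ± 25.8 to 356 ± 32.1 CPM. Of 19 prolactin receptor, STAT and SOCS pathway genes it was the member that rose (2 with the block and without vehicle library 1 or estradiol library 2). GHR, the growth hormone receptor, was the member that fell (7 with the block, 3 without vehicle library 2 and 0 without any 1 of the other 5, highest adjusted p for GHR = 0.144). The shares, 5.26% in each direction, were below those of all tested genes (7.22% and 6.38%).

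Of 17 genes that feed back on MAP kinase signalling 3 rose and 5 fell. RASGRP1, an activator of RAS, rose by 2.84 ± 0.32, and the inhibitors SPRY4 and SPRED1 rose by 2.63 ± 0.59 and 0.73 ± 0.16 on the log2 scale. Of the phosphatases, DUSP5 (−0.85), DUSP8 (−0.57), DUSP10 (−0.89) and DUSP16 (−0.56) fell, and so did SPRY1, a relative of SPRY4; 3 members fell without vehicle library 1 or 3 and without estradiol library 1 or 2. JUNB, an AP-1 subunit, fell by 0.76 ± 0.16. Of 16 AP-1 and EGR factors it was the member that fell, and EGR3 and IER3 rose (4 and 4 with the block), IER3 not being called without vehicle library 1 or 3 or estradiol library 1 or 3 (highest adjusted p = 0.14). The share of these factors that fell, 6.25%, was near the 6.38% of all tested genes. MYC, the growth-driving transcription factor, was at 10.6, 6.81 and 12.9 CPM in vehicle and 42.6, 29 and 37.4 CPM in estradiol. The rise was seen for each replicate number, with log2 differences of 2.00, 2.07 and 1.53, and MXD4, a repressor that competes for its partner MAX, fell from 237 ± 39.3 to 148 ± 23.9 CPM. Of 12 members of this network MXD3 was the other that rose, though not without vehicle library 3 or estradiol library 1 (highest adjusted p = 0.062), and 4 fell with the block and 2 without vehicle library 3. In this network 16.7% rose and 8.33% fell, against 7.22% and 6.38% of all tested genes.

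Many cell cycle genes rose, in shares that differed between the groups listed. Of 8 tested G1 cyclins and kinases 7 rose, and CDK6, named here as the exception, did not pass (−0.37). Cyclin D1, CCND1, was at 282, 219.8 and 323 CPM in vehicle and 469, 356 and 453 CPM in estradiol. The E-type cyclins CCNE1 and CCNE2 rose by 1.28 ± 0.22 and 1.32 ± 0.14, their kinase CDK2 by 0.93 ± 0.13 and the phosphatase CDC25A, which activates it, by 1.21 ± 0.16 on the log2 scale. E2F1, an activator of S-phase genes, was at 37.5, 40.2 and 40.02 CPM and 95.4, 110.1 and 93.1 CPM. Among 18 E2F factors and pocket proteins 9 rose, 9 did not pass and 0 fell (1 with the block), including the activator E2F2 (1.02), the atypical repressor E2F8 (1.31) and MYBL2 (0.97), a subunit of the complex that switches on mitotic genes. Of 8 CDK inhibitors 5 did not pass, CDKN2C and the phosphatase CDKN3 rose (0.56 ± 0.17 and 0.82 ± 0.22) and CDKN2B fell (−0.65 ± 0.21). These calls rested on single libraries: 0 rose without vehicle library 1 or 3 or estradiol library 2, 1 rose without estradiol library 1 or 3, and 0 fell without any 1 library but estradiol library 2.

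DNA replication genes rose in 40 of 52 tested members, with 0 lower and a median log2 fold change of 0.88. Together they took 2157, 2084 and 2268 CPM in vehicle and 4055, 3911 and 3802 CPM in estradiol. The summed level was thus similar within each group, and the lowest estradiol library was far above the highest vehicle library. MCM2, a subunit of the replicative helicase, was at 111, 114 and 114 CPM in vehicle and 271, 279 and 248 CPM in estradiol. GINS2, which couples the helicase to polymerase, was at 51.1, 53.5 and 51.7 CPM and 128, 123 and 115 CPM. The vehicle values of these genes differed by little and the estradiol values lay far above them. Of the 12 members that did not pass, 4 were the origin recognition subunits ORC2, ORC3, ORC4 and ORC5, at 0.23, 0.38, 0.11 and 0.24 (ORC3 passed with the block, adjusted p = 0.00502); ORC1 and ORC6, the other subunits of that complex, were at 1.29 and 1.29 and rose. These ORC genes were singled out after their values were seen.

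Promoters of the replication genes held the E2F site (TTTGGCGC or TTTCGCGC, on either strand) in 11 of the 44 cases with a promoter in the table, or 25%, against 2.1% of the promoters of all tested genes. Among all genes that rose the share was 4.82%, and among those that fell 0.83%. Turned round, of the 227 tested genes with such a promoter 17.6% rose and 2.64% fell, where 7.68% and 6.69% of all genes with a promoter did. The 150 bases before the start of MCM7, MCM6 and POLA2 are shown, the members with the smallest adjusted p that hold the site, with E2F sites and CCAAT boxes (CCAAT or ATTGG) in capitals. MCM7 and MCM6 lie on the minus strand at chr7:100101398-100101547 and chr2:135876444-135876593, and POLA2, the second subunit of the primase polymerase, on the plus strand at chr11:65261812-65261961.
MCM7: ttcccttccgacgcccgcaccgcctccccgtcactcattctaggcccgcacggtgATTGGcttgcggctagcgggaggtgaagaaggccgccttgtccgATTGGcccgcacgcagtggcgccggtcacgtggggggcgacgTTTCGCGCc
MCM6: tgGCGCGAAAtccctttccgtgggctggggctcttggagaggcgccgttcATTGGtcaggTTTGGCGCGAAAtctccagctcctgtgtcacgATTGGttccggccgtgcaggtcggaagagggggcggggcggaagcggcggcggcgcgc
POLA2: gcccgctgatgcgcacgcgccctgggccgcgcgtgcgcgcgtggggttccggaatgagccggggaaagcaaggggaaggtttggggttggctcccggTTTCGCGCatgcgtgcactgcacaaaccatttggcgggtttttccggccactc

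The E2F site of MCM7 ends 2 bases before the annotated start, and MCM6 has 3 matches, of which those at 90 to 83 and 86 to 79 bases before the start overlap on opposite strands. In the same libraries MCM7 went from 66.7 ± 5.27 to 153 ± 6.95 CPM, MCM6 from 55.2 ± 6.43 to 126 ± 7.86 CPM and POLA2 from 37.2 ± 4.03 to 69.2 ± 0.928 CPM. The log2 fold changes were 1.2 ± 0.10, 1.19 ± 0.12 and 0.89 ± 0.11.

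Genes of mitosis and the kinetochore rose in 49 of 65 tested members with 0 lower, and all 65 had a positive log2 fold change (median 0.63). The count was 31 without vehicle library 1 and 32 without estradiol library 1. Their summed level was 3683, 3698 and 4190 CPM in vehicle and 6035, 5556 and 5878 CPM in estradiol. CDCA5, or sororin, which holds sister chromatids together, was at 58.3, 56.7 and 59.5 CPM and 139, 135 and 139 CPM. CDK1, the mitotic kinase, was at 64.3, 70.5 and 64.4 CPM and 138, 118 and 125 CPM. Each group was narrow and the groups were wholly apart for both genes. Of 36 kinesin motors 23 did not pass and 12 rose (7 without vehicle library 1 and 7 without estradiol library 1), led by the spindle motor KIFC1 (0.94 ± 0.10), and KIF13B, a transport kinesin, was the member that fell, though not without vehicle library 3 or estradiol library 1 or 3 (highest adjusted p = 0.0919; 3 fell with the block).

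The cell cycle homology region (CHR, TTTGAA on either strand), the element through which the DREAM and MYB-MuvB complexes act, was in 29 of 51 promoters of the mitosis list, or 56.9%, against 9.46% of all tested genes, 15.5% of those that rose and 9.41% of those that fell. The CCAAT box was in 66.7% of the mitosis promoters and in 36.8% of all. In the replication list 2.27% of promoters held the CHR and 5.88% of the mitosis promoters held the E2F site, so that the CHR was below its share of all tested genes in the replication list, while the E2F site was above its share of all tested genes in both lists. ESPL1, which encodes separase, the condensin subunit NCAPG and the kinetochore protein ZWINT are shown, chosen by the CHR under the same rule as the replication promoters. Both elements are in capitals, at chr12:53268149-53268298 (plus strand), chr4:17810829-17810978 (plus strand) and chr10:56361260-56361409 (minus strand).
ESPL1: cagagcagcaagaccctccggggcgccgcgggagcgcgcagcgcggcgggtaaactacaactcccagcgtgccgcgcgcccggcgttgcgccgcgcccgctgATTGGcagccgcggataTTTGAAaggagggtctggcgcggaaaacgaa
NCAPG: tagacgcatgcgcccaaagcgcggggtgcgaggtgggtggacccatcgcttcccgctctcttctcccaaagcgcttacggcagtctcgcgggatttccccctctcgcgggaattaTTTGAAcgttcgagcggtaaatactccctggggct
ZWINT: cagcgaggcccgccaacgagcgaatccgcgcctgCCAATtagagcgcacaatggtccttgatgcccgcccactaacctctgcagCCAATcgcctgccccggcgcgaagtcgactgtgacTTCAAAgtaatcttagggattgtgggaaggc

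In ESPL1 and ZWINT the CHR lies 31 to 26 bases before the annotated start, and in NCAPG 35 to 30 bases before it. ESPL1 went from 58.4 ± 4.72 to 112 ± 6.89 CPM, NCAPG from 28.2 ± 4.11 to 59 ± 2.18 CPM and ZWINT from 64.1 ± 9.28 to 113 ± 7.34 CPM. Their log2 fold changes, 0.94 ± 0.11, 1.06 ± 0.13 and 0.82 ± 0.11, were below those of the helicase subunits MCM2 and MCM7 (1.24 and 1.2), a difference that was not tested.

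Genes that supply and repair DNA followed. Of 37 genes of nucleotide and folate one-carbon synthesis 22 rose and 0 fell (median 0.50; 1 fell with the block). RRM2, the regulated subunit of ribonucleotide reductase, was at 59.2, 63 and 65.1 CPM in vehicle and 184, 143 and 159.5 CPM in estradiol. The CTP synthase CTPS1, the serine synthesis enzyme PSAT1 and thymidylate synthase TYMS rose by 1.36 ± 0.13, 1.22 ± 0.12 and 1.13 ± 0.12 on the log2 scale. Of 40 genes of homologous recombination and mismatch repair 22 rose and 0 fell (median 0.65), with the exonuclease EXO1 at 12.4, 14.5 and 15.1 CPM in vehicle and 41.7, 41.4 and 39.8 CPM in estradiol. Of 14 histone chaperones and variants 9 rose and 0 fell (median 0.69), among them CHAF1A of the replication-coupled chaperone CAF-1 (1.04 ± 0.11) and ASF1B (1.08 ± 0.13). Of 23 enzymes of DNA methylation and Polycomb silencing 5 rose (3 without vehicle library 1) and JARID2 fell, though not without vehicle library 1 or 3 or estradiol library 1 or 3 (highest adjusted p = 0.0651; 3 fell with the block). Those that rose included the maintenance methyltransferase DNMT1 (0.64 ± 0.11) and the Polycomb methyltransferase EZH2 (0.74 ± 0.15).

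**Figure D3:**
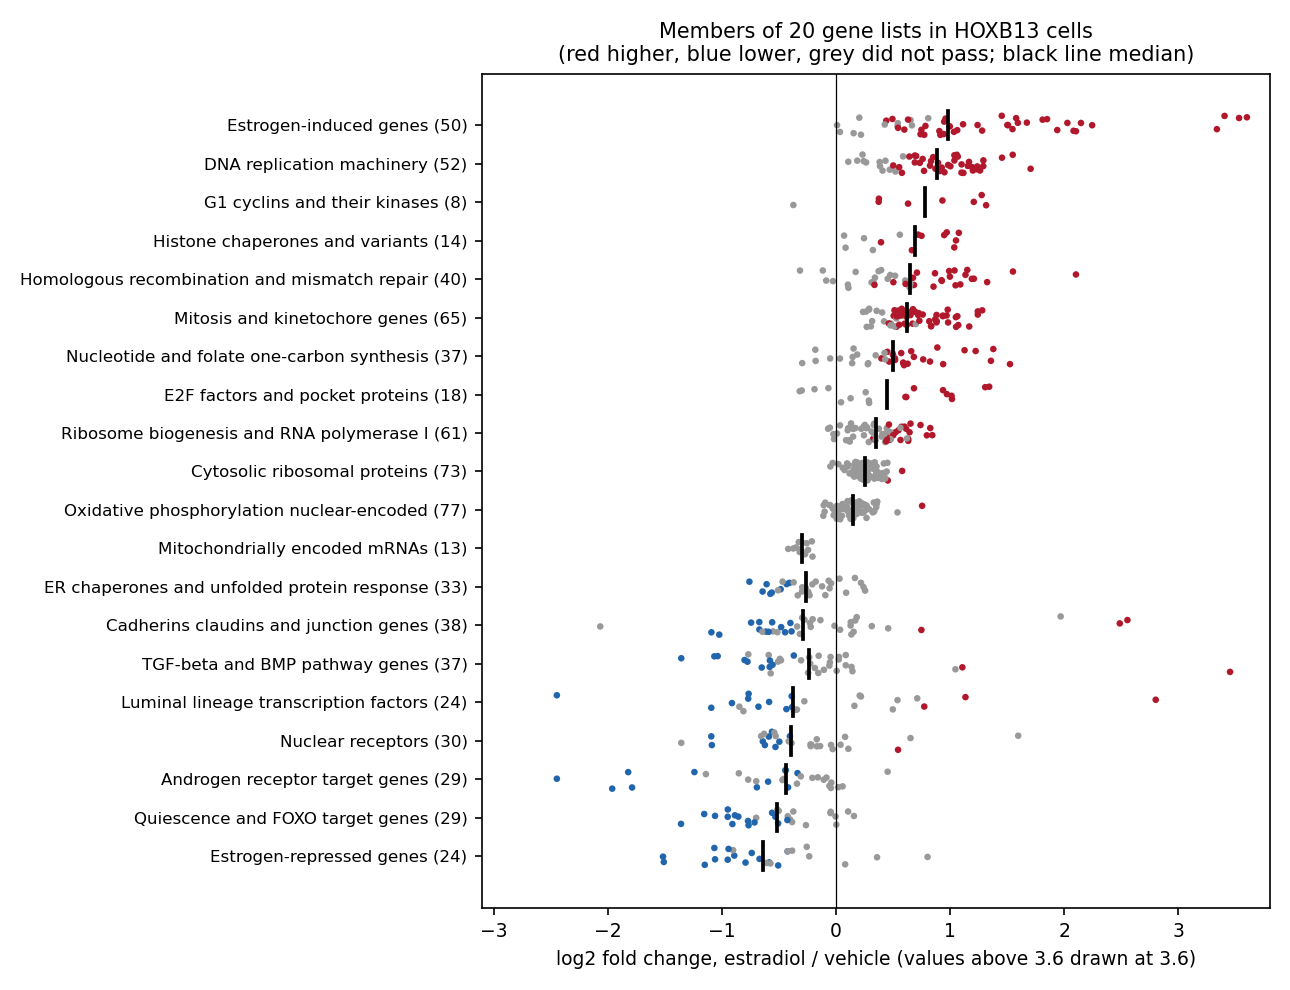
Log2 fold change with estradiol of every tested member of 20 gene lists (number tested in brackets), red for members that rose, blue for those that fell, grey for those that did not pass, with the list median as a black line. Replication, mitosis and estrogen-induced genes lie to the right of 0 as whole lists, ribosomal proteins and oxidative phosphorylation genes form narrow clouds slightly to the right, and quiescence and estrogen-repressed genes lie mostly to the left.

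Genes of ribosome production moved by less but in common. Of 61 genes of ribosome biogenesis and RNA polymerase I 21 rose and 0 fell (median 0.35), 40 with the replicate block and 12 without vehicle library 1. The box C/D snoRNP core protein NOP56 went from 76.6 ± 5.3 to 136 ± 8.16 CPM, NOLC1 from 209 ± 11.7 to 306 ± 7.7 CPM and the pseudouridine synthase DKC1 from 41.6 ± 1.97 to 64.9 ± 2.47 CPM. The MYC E-box CACGTG was in 18 of the 51 promoters of this list, or 35.3%, against 10% of all tested genes and 13.3% of those that rose.

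Cytosolic ribosomal protein genes had small positive changes, and how many passed depended on how the libraries numbered 2 were treated. Of 73 tested, 71 had a positive log2 fold change (median 0.26), but RPL17 and RPL9 were the 2 that rose, and both were called without vehicle library 2, where 13 members rose, and not without any other 1 library (adjusted p = 0.108 and 0.164 without vehicle library 3). The share that rose, 2.74%, was below the 7.22% of all tested genes. With the replicate block 47 rose, where 15.5% of all tested genes were higher, and without the 4 libraries numbered 2 also 47. The summed level was 39025, 47691 and 34399 CPM in vehicle and 47118, 51761 and 45790 CPM in estradiol, and the highest library of each group was the one numbered 2 and the groups overlapped. The median difference between equally numbered libraries was 0.28, 0.12 and 0.43. Mitochondrial ribosomal proteins gave 7 of 76 higher (9.21%, near the 7.22% of all tested genes), with a median of 0.26, and 39 with the block. The count was 1 without vehicle library 1, 3 without vehicle library 3 or estradiol library 2, and 4 without estradiol library 1 or 3. MRPL17 rose from 30.4 ± 3.25 to 51.3 ± 4.15 CPM. Of 77 nuclear-encoded genes of oxidative phosphorylation CYCS, cytochrome c, alone rose (0.75 ± 0.12, with a list median of 0.15). This share, 1.3%, was below that of all tested genes. The count was 21 with the block, 25 without the libraries numbered 2 and 3 without vehicle library 2.

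The mRNAs encoded in the mitochondrial genome leaned the other way. By edgeR 0 of 13 passed (3 at an unadjusted p under 0.05; 1 with DESeq2, 0 with limma-voom), all 13 had a negative log2 fold change (median −0.30), and 9 fell with the replicate block, 1 without vehicle library 3 or estradiol library 1, and 0 without the libraries numbered 2. MT-CO1, a subunit of cytochrome oxidase, was at 20655, 16579 and 15053 CPM in vehicle and 16289, 12524 and 12882 CPM in estradiol. The groups overlapped, and the log2 fold change of −0.33 ± 0.16 passed with the block (adjusted p = 0.0202) and not without it (adjusted p = 0.231). All mitochondrial transcripts together took 8.51, 7.06 and 6.58% of the counts in vehicle and 6.96, 5.63 and 5.86% in estradiol, and the part of this share in other results was not tested, apart from scaling without mitochondrial genes, which gave 1068 genes higher and 946 lower.

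**Figure D4:**
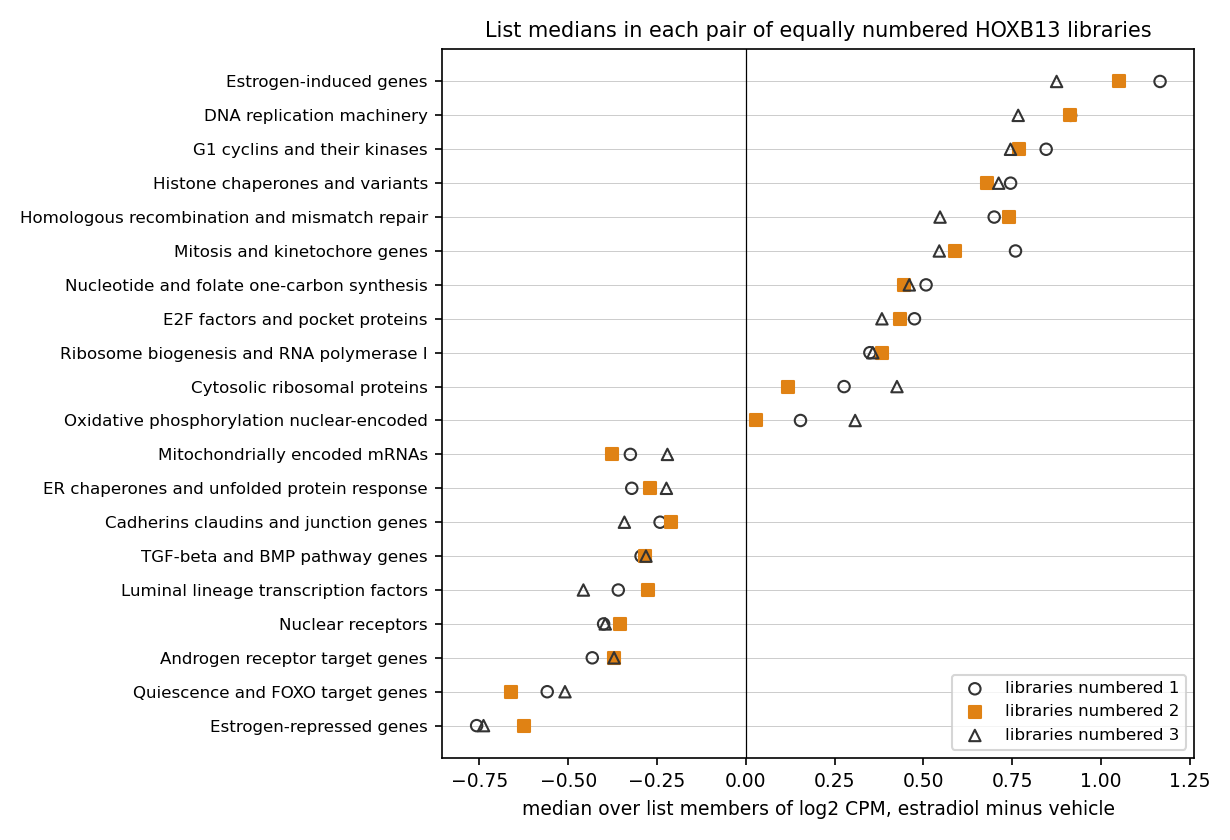
Median over the members of each of 20 lists of the log2 CPM difference, estradiol minus vehicle, between equally numbered HOXB13 libraries (circles number 1, filled squares number 2, triangles number 3). All 3 numbers lie on the same side of 0 for every list shown; for cytosolic ribosomal proteins number 2 is at 0.12 and number 3 at 0.43, while the replication list spans 0.77 to 0.91.

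Protein folding genes were listed by compartment. In the cytosol and mitochondria 8 of 30 heat shock proteins and cochaperones rose and 0 fell (17 and 2 with the replicate block; 3 rose without vehicle library 1 and 5 without estradiol library 1 or 3, and 1 fell without vehicle library 3). The mitochondrial chaperonin HSPD1 went from 274 ± 6.83 to 422 ± 6.24 CPM, and FKBP4 led the list. Of 39 proteasome and CCT chaperonin subunits 5 rose (15 with the block), including CCT5 (0.55 ± 0.10), and 1 rose without vehicle library 1, 8 without vehicle library 2 and 2 without any 1 of the other 4 libraries. In the endoplasmic reticulum 8 of 33 chaperones and unfolded protein response genes fell and 0 rose (median −0.26; 17 fell and 1 rose with the block, and 4 fell without vehicle library 1, 5 without any 1 estradiol library). HSPA5, the chaperone BiP, was at 1849, 1733 and 1654 CPM in vehicle and 1213, 1206 and 1126 CPM in estradiol. Its groups were far apart, and SYVN1, a ubiquitin ligase of the same compartment, fell by 0.61 ± 0.12. Among 31 ATF4 targets and tRNA synthetases 9 rose and 0 fell (18 with the block), such as CHAC1, a glutathione-degrading enzyme (1.62 ± 0.28), and the tyrosyl-tRNA synthetase YARS (0.75 ± 0.14).

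Amino acid transporters split: 8 of 26 rose (30.8%) and 2 fell (7.69%, near the 6.38% of all tested genes), with 10 and 4 under the block. SLC7A5, the large neutral amino acid transporter LAT1, was at 343, 536 and 402 CPM in vehicle and 659, 1128 and 771 CPM in estradiol, and SLC7A1, which carries arginine and lysine, at 47.7, 50.2 and 53.2 CPM and 116, 116 and 102 CPM. Both rose in every number, while SLC7A8, the related transporter LAT2, fell from 244 ± 18.7 to 138 ± 4.51 CPM. The number that rose was 5, 4, 5 and 5 without vehicle library 1 and estradiol libraries 1, 2 and 3. Of 41 genes of cholesterol and fatty acid synthesis 8 rose (19.5%) and 3 fell (7.32%, also near 6.38%), with 16 and 3 under the block. The elongase ELOVL2 rose from 6.73 ± 2.86 to 29.9 ± 4.94 CPM and ACAT2, an acetyl-CoA thiolase, from 65.7 ± 2.47 to 108 ± 1.87 CPM, while SREBF1, which encodes the lipid regulator SREBP1, fell from 356 ± 45.7 to 232 ± 34.7 CPM. The fatty acid synthase FASN also fell, but it was not called without vehicle library 1 or 2 or estradiol library 1 or 3 (highest adjusted p = 0.139). The list counts were 3 and 1 without vehicle library 1, 4 rising without vehicle library 3, 4 and 1 without estradiol library 1, and 3 and 1 without estradiol library 3. In glycolysis PFKFB3, a regulator of the pathway, rose from 36.8 ± 5.66 to 89.6 ± 19.2 CPM and the phosphofructokinase PFKP from 91.1 ± 4.95 to 151 ± 10.1 CPM. Of 37 hypoxia and glycolysis genes 6 rose (16.2%, and 3 without estradiol library 1). NDRG1 and the prolyl hydroxylase EGLN3 fell (5.41%, near the 6.38% of all tested genes, and 8 fell with the block).

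Genes of quiescence and FOXO activity fell. Of 29 tested 15 fell and 0 rose (median −0.51), and 12 to 14 fell in each fit without 1 library. CCNG2, an unconventional cyclin of arrested cells, was at 79.7, 67 and 72.3 CPM in vehicle and 36.4, 33.1 and 35.5 CPM in estradiol. CITED2, a CBP/p300-binding regulator, was at 250, 224 and 224 CPM and 100.2, 111 and 102 CPM. DDIT4, an inhibitor of mTOR signalling, was at 38.5, 46.6 and 41.8 CPM and 14, 16.3 and 19.2 CPM. For each of these genes the lowest vehicle library was above the highest estradiol library by a wide margin. ZFP36L2, which destabilises mRNAs, fell from 77.4 ± 7.22 to 40.1 ± 4.51 CPM. Of 19 BCL2 family genes the proapoptotic BMF fell from 33.9 ± 3.33 to 16.4 ± 3.04 CPM, and BCL2L11, also proapoptotic, fell but was not called without vehicle library 1 (adjusted p = 0.186) or 3 or estradiol library 2 or 3; with the block 4 members fell and 3 rose, and 1 rose without vehicle library 2.

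Androgen receptor targets gave 11 of 29 lower and 0 higher (median −0.44), 18 lower with the replicate block, and 6 lower without vehicle library 1 or without estradiol library 1. NDRG1, which is induced by androgen and by hypoxia, was at 39.5, 33.1 and 30.7 CPM in vehicle and 9.03, 10.2 and 7.26 CPM in estradiol. KCNMA1, a calcium-activated potassium channel, was at 74.5, 66.9 and 62 CPM and 31, 31.2 and 23.8 CPM. TRPM8, the cold-sensing channel, and STEAP4, a metalloreductase, had log2 fold changes of −1.82 ± 0.26 and −1.79 ± 0.34, both past the threshold. The androgen receptor cochaperone FKBP5, a gene named after its value was seen, overlapped between the groups at a log2 fold change of 0.06 ± 0.11. The prostate markers summed to 35.8 to 37.1 CPM in vehicle and 24.6 to 27.7 CPM in estradiol.

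Cell contact and guidance genes fell more often than they rose. Of 38 cadherins, claudins and junction genes 12 fell (31.6%) and 3 rose (7.9%, near the 7.22% of all tested genes), with a median of −0.29. In the fits without vehicle library 1 or estradiol library 1, 7 fell. JUP, plakoglobin, was at 2475, 2583 and 2307 CPM in vehicle and 1531, 1735 and 1355 CPM in estradiol, and the tight junction claudin CLDN4 at 668, 746 and 633 CPM and 385, 474 and 426 CPM. The gap junction gene GJA1, connexin 43, moved against them, from 5.01, 1.48 and 6.33 CPM to 27.8, 19.9 and 27.8 CPM, with CELSR2 and GJB2 as the other members that rose, GJB2 being called in 1 of the 6 fits without 1 library, that without estradiol library 3. Of 50 axon guidance genes 10 fell and 2 rose (median −0.27; 16 fell and 5 rose with the block, and 6 fell without vehicle library 1). PLXNB2, a semaphorin receptor, was at 1110, 1108 and 1106 CPM and 608, 742 and 589.7 CPM, so that the vehicle libraries were nearly equal and the estradiol libraries lower. SEMA3G, a secreted semaphorin, rose from 1.82 ± 0.465 to 9.83 ± 1.92 CPM, and NTN1 was the other member that rose, although NTN1 was called in 1 of the 6 fits without 1 library, that without vehicle library 1. The number of guidance genes that rose was 3 without vehicle library 1 and 1 without vehicle library 2 or any 1 estradiol library. Fibronectin, FN1, fell from 118 ± 6.08 to 67.3 ± 5.36 CPM. Of 40 collagens, laminins, integrins and fibronectin 5 fell and 2 rose (11 fell with the block); 1 fell without vehicle library 1 or estradiol library 1 or 3, and 0 or 1 rose without any 1 library. The collagen, laminin, integrin and fibronectin list stood at 12.5% lower and 5% higher, against 6.38% and 7.22% of all tested genes. Of 11 genes of mesenchymal transition TWIST1 and FN1 fell (18.2%) and FOXC1 rose (9.09%, and 2 members with the block). Of these, 1 fell without vehicle library 2 or 3 or estradiol library 1, 0 rose without vehicle library 3 or estradiol library 2, and 2 rose without vehicle library 1.

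Ligands and regulators of TGF-beta signalling fell in 10 of 37 cases, with TGFBR3 and SMAD9 higher (median −0.23; 16 fell with the block and 6 without estradiol library 1, and 0 rose without vehicle library 2 and 1 without any other 1 library but estradiol library 2). TGFB3, a ligand, was at 198, 217 and 205 CPM in vehicle and 94.5, 91.1 and 110.1 CPM in estradiol. BAMBI, a decoy receptor, was at 83.2, 86.5 and 70.04 CPM and 26.6, 31.1 and 35.9 CPM. Ligand and decoy were thus both lower in every estradiol library, and so were INHBB, an activin subunit (−0.78 ± 0.10), and the signal transducer SMAD3 (−0.80 ± 0.12). In the Notch pathway 2 of 23 rose (8.7%) and 3 fell (13%), against 7.22% and 6.38% of all tested genes, with 6 and 7 under the block. The target HES1 fell from 46.7 ± 5.68 to 24.3 ± 1.75 CPM, while HEY2, another target, rose from 2.96 ± 1.03 to 11.8 ± 2.98 CPM. The ligand JAG2 rose from 28.7 ± 4 to 46.7 ± 3.41 CPM. In the Wnt pathway 2 of 26 rose (7.69%) and 3 fell (11.5%), with 4 and 5 under the block, and 5 fell without vehicle library 2. RNF43 fell by 0.97 ± 0.15 and ZNRF3 rose by 0.55 ± 0.13, although both encode ubiquitin ligases that remove Frizzled receptors, and WISP2 rose from 4.32 ± 0.523 to 11 ± 0.674 CPM. Of 19 interleukin receptors 5 fell and 2 rose; IL1R1, the receptor of interleukin 1, was at 43.4, 34.9 and 34.3 CPM and 12.9, 11.8 and 14.7 CPM, and IL17RB rose by 0.95 ± 0.18. The number that fell was 1 without estradiol library 1, 2 without vehicle library 2 or estradiol library 3 and 3 without vehicle library 1 or estradiol library 2, and 1 rose without estradiol library 1.

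Secreted and surface proteins of epithelia changed in both directions. AGR3, a disulfide isomerase of secretory cells, was at 13.7, 13.9 and 14.1 CPM in vehicle and 38.2, 41.3 and 38.2 CPM in estradiol, and CEACAM6, an adhesion molecule, at 46.7, 48 and 35.7 CPM and 14.8, 13.3 and 12 CPM. These groups lay far apart in opposite directions. Of 21 trefoil, mucin and secretory genes 4 rose and CEACAM6 fell (3 fell with the block, 2 without vehicle library 3 or estradiol library 2). Of 15 keratins KRT13 rose, from 0.397, 0.211 and 0 CPM to 2.23, 2.81 and 2.28 CPM, and 4 fell (0 without estradiol library 1, 1 without estradiol library 3, 2 without vehicle library 1 or 2), while 4 rose with the block and 2 without vehicle library 1. Among keratins 6.67% rose, near the 7.22% of all tested genes, and 26.7% fell, against 6.38%. Among receptors for small ligands NPY1R, for neuropeptide Y, rose from 6.85 ± 2.96 to 33.3 ± 2.47 CPM, the adenosine receptor ADORA1 from 1.32 ± 0.4 to 6.23 ± 1.41 CPM and the adrenergic receptor ADRA2A from 4.91 ± 2.35 to 22.1 ± 3.47 CPM, while GRM4, a metabotropic glutamate receptor, fell from 9.64 ± 1.56 to 2.41 ± 0.652 CPM. CD34, a marker of blood and vessel progenitors, was the member of the non-epithelial list that rose, from 0.149, 0.106 and 0.262 CPM to 1.43, 0.99 and 1.41 CPM, beside PTPRC at or below 0.21 CPM in every library.

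Type I interferon response genes fell in 5.88% of cases, near the 6.38% of all tested genes, and rose in 0%, against 7.22%. Of 34 type I interferon response genes 2 fell and 0 rose (median −0.12; 5 fell and 1 rose with the block, 4 fell without vehicle library 2, 1 fell without vehicle library 1 or 3 or estradiol library 1 or 2, and 1 rose without vehicle library 3), the antiviral synthetase OAS2 from 51.3 ± 20.04 to 21.9 ± 1.41 CPM and the RNA sensor DDX58, which was called in the fit without vehicle library 2 and in none of the other 5 (highest adjusted p = 0.172). Of 18 genes of MHC class I presentation 0 passed by edgeR (3 at an unadjusted p under 0.05; 1 with DESeq2, 0 with limma-voom, 3 with the replicate block, 1 without vehicle library 2), and of 2 tested APOBEC3 cytidine deaminases 0 passed by edgeR (1 at an unadjusted p under 0.05; 0 with DESeq2 and 0 with limma-voom, 1 with the block). Of 20 HOX cluster genes 3 fell, HOXC10 (−0.48 ± 0.09), HOXC13 (−0.48 ± 0.11) and HOXB2 (−0.41 ± 0.10), in the fit with all libraries and in each fit without 1, and HOXB5 rose (0.98 ± 0.28), which was not called without vehicle library 1 or 2 or estradiol library 1 or 2 (highest adjusted p = 0.146; 2 rose with the block).

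The last comparison asked where the estradiol response of HOXB13 cells differed from that of control cells. By edgeR's test of the difference, called genes numbered 0 of 14799 (0%); 219 had an unadjusted p under 0.05, and DESeq2, limma-voom and the replicate block also called 0. With the block 585 had an unadjusted p under 0.05. Of the 2012 genes that passed in HOXB13 cells 1620 passed in control cells in the same direction, which is 80.5% of the HOXB13 calls and 71.2% of the 2275 control calls, and 0 passed in the opposite direction. The log2 fold changes in HOXB13 and control cells were 5.19 and 5.12 for SPINK4, −2.45 and −2.17 for MAF, −2.23 and −1.84 for CXCR4, 1.85 and 2.00 for MYC, and 1.34 and 1.51 for E2F1. Their differences had 95% intervals of −2.02 to 2.16, −1.45 to 0.89, −1.29 to 0.52, −0.77 to 0.47 and −0.45 to 0.13, so the interval was narrow for E2F1 and allowed a several-fold difference for SPINK4. The median interval over all genes reached 0.53 to either side on the log2 scale, and 0.345 with the replicate block.

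The 6 genes with the smallest unadjusted p for the difference were not called either. CCDC96, a coiled-coil protein, was at 6.11, 7.61 and 8.53 CPM in vehicle and 4.25, 3.75 and 2.55 CPM in estradiol in HOXB13 cells, where it fell (−1.07 ± 0.22), and had a log2 fold change of 0.13 in control cells. The difference was −1.2 ± 0.31 (unadjusted p = 0.00165, adjusted p = 1). NXPH3, a secreted neurexin ligand, rose by 3.17 in HOXB13 and 4.38 in control cells, ADRA2A by 2.17 and 3.73, and RNF223, a ring finger protein, by 0.94 and 1.71. These 3 genes rose in both genotypes with the smaller value in HOXB13 cells. TFF1, whose interval also lay wholly below 0, rose by 2.03 and 3.73 (difference −1.70 ± 0.72, unadjusted p = 0.0343, adjusted p = 1). The pseudogene KRT18P34, whose reads may be shared with KRT18, and POLN, a DNA polymerase, were low in all 6 HOXB13 libraries, at 0.569 ± 0.103 to 0.3 ± 0.119 CPM and 0.24 ± 0.0736 to 0.81 ± 0.476 CPM, with differences of −3.96 ± 0.92 and 2.75 ± 0.77. These differences rest on low counts and also draw on the control libraries, so they are not the changes within HOXB13 cells. With the block POLN rose in HOXB13 cells (adjusted p = 0.0334; 0.0543 without it).

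**Figure D5:**
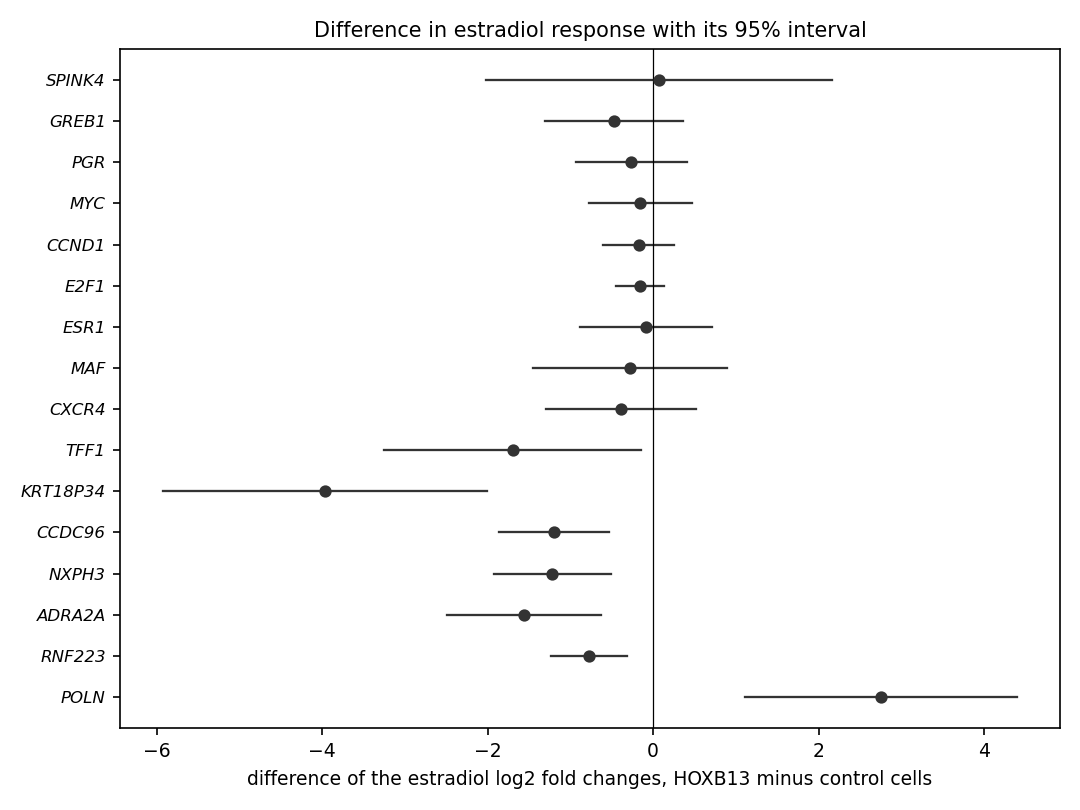
Difference between the estradiol log2 fold changes of HOXB13 and control cells (HOXB13 minus control) with its 95% interval for 16 genes named by rule. The first 10 genes include the marker and receptor genes and the last 6 are those with the smallest unadjusted p, from KRT18P34 at −3.96 to POLN at 2.75; none had an adjusted p under 0.05.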

How the data were processed

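Per the labels' protocols, RNA was extracted with a column kit and libraries were made and sequenced by a service provider. Per the submitters' processing notes the authors used FastQC, STAR, Picard and HTSeq with GRCh37/hg19 (tool versions, annotation and strandedness: not given in the sources used here). What the authors deposited is a table of raw counts, by gene symbol, for 12 libraries. Because strandedness is unknown, overlapping and antisense genes cannot be told apart.

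Of 55882 symbols, 14799 were tested after edgeR's filterByExpr (minimum count 10, total 15), which kept over 99.9% of the counts. The counts were scaled by TMM (factors 0.974 to 1.04) and fitted over all 4 groups of 3 with edgeR 4.0.16's robust quasi-likelihood model in R 4.3.3. Log2 fold changes had edgeR's default prior count, the SE came from the F statistic, and intervals were 95%. Benjamini-Hochberg was applied over all tested genes. A prior count of 2 was used for log2 CPM values only. On simulated counts with known changes the fit recovered 79% of 100 genes changed 2-fold and 100% of 100 changed 4-fold in this comparison, among 14576 genes. It also called 10 unchanged genes. The changed genes were drawn from those at about 1 CPM or more, and no effect of the replicate number was simulated. The recovery therefore does not cover lower genes or variation shared by same-numbered libraries.

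Same-numbered vehicle and estradiol libraries deviated together, with correlations of 0.184, 0.354 and 0.23, against −0.258 to 0.0737 for unequal numbers, so same-numbered libraries shared variation. The labels leave the meaning of the numbers unstated, and the libraries numbered 2 stood apart from the rest. Calls come from the fit without the number, and the replicate block is an alternative whose counts stand beside them, with RLE scaling, TMM without mitochondrial genes, DESeq2 1.42.0, limma-voom (limma 3.58.1), no filter, a minimum count of 50, the 6 HOXB13 libraries alone, the 8 libraries not numbered 2, and each library left out in turn.

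The comparison, the 64 gene lists and the markers were chosen with earlier results of these data known. A list is described by its counts and median and has no test of its own. Named genes were the 11 receptor, marker and target genes, those with the largest fold changes, the largest differences in CPM or near-silent vehicle levels, up to 4 called members per list and direction by adjusted p, the abundant genes with the narrowest intervals near 0, and the 6 with the smallest p for the genotype difference. MCM6, POLA2, NCAPG and ZWINT were added for their promoter matches, and CDK6, FKBP5 and the ORC genes after their values were seen. Some genes that the rule names and 1 of the lists are not reported here. Promoters are RefSeq sequences of GRCh38.p14, matched by symbol for 10805 of the tested genes and used for sequence only, since the deposited counts carry no coordinates.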

Additional observations from a re-analysis of the deposited data

How the results depend on the processing

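The numbers of genes that rose and fell moved by over 1.5 times under 2 settings and when some single libraries were left out. The replicate block gave 2297 higher and 2222 lower, and leaving out the 4 libraries numbered 2 gave 1741 higher and 1544 lower, where the full fit gave 1068 and 944. Leaving out 1 HOXB13 library gave 689 to 1048 higher and 527 to 824 lower, and leaving out 1 control library 927 to 1205 and 787 to 1027. Of the 293 named genes the replicate block left 283 on the same side of the threshold and moved 10 past it, and it changed no other call among them. In that count 4 of the 293 lost their call with limma-voom, 19 with the 6 HOXB13 libraries alone and 26 to 56 when 1 HOXB13 library was left out. No named gene reversed its direction under any of these settings. For the difference between the genotypes the fit without a filter on low counts called 3 genes with a larger and 1 with a smaller response in HOXB13 cells, and leaving out the libraries numbered 2 called 1 smaller; the cause was not tested.

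Depth limits the genes below about 1 CPM, whose levels rest on about 20 counts a library or fewer, and the number of libraries limits the rest: the median 95% interval of a log2 fold change reached 0.377 to either side.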

Other observations

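Ion channels changed in both directions. Of 30 tested potassium channels 6 rose and 3 fell (median 0.02; 5 fell with the replicate block). KCNK5, a channel of the two-pore-domain family, was at 0.645, 0.159 and 0.994 CPM in vehicle and 7.06, 5.26 and 6.93 CPM in estradiol, and KCNF1, a silent subunit of voltage-gated channels, rose from 12.6 ± 0.816 to 34.6 ± 6.39 CPM. The voltage-gated channel KCNC1 went the other way, from 28.4, 31.8 and 29.7 CPM to 5.42, 9.38 and 7.53 CPM, and its groups did not overlap. The M-type channel KCNQ5 rose by 2.02 ± 0.32 on the log2 scale. Of 26 TRP, sodium and calcium channels the T-type calcium channel CACNA1H rose from 21.7 ± 1.61 to 35.9 ± 7.01 CPM and 4 fell (2 without estradiol library 1; 3 rose with the block).

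Of 46 glycosyltransferases 3 rose (6.52%) and 4 fell (8.7%), shares near those of all tested genes (7.22% and 6.38%), with 5 and 11 under the block. B4GALT1, which adds galactose, was at 188, 127 and 199 CPM in vehicle and 487, 312 and 443 CPM in estradiol. Among sialyltransferases that cap galactose, ST6GAL1 fell from 141 ± 7.03 to 63.5 ± 5.21 CPM and ST3GAL1 from 120.3 ± 4.09 to 54.1 ± 7.41 CPM. ST8SIA1, which makes the ganglioside GD3, fell by 1.53 ± 0.33. These genes were picked from a list in which 39 members did not pass, and they do not describe galactose addition or capping as a whole. Of 31 ABC transporters 6 fell and 2 rose (5 rose with the block; 3 fell without vehicle library 1 or 3 and 2 without estradiol library 1 or 3, and 1 rose without any 1 library but estradiol library 1). Among ABC transporters 6.45% rose, near the 7.22% of all tested genes, and 19.4% fell, against 6.38%. The cholesterol exporters ABCA1 and ABCG1 fell from 5.76 ± 0.876 to 1.5 ± 0.286 CPM and from 34.6 ± 1.58 to 16.7 ± 0.704 CPM, and the ribosome recycling factor ABCE1 rose from 62.6 ± 1.94 to 93.7 ± 6.69 CPM. Among 39 mitochondrial carriers of the SLC25 family 4 rose (10.3%) and 3 fell (7.69%), against 7.22% and 6.38% of all tested genes. With the replicate block 18 rose and 4 fell, 7 rose without vehicle library 2, and 1 fell without vehicle library 1 or 3 or estradiol library 3. SLC25A15, the ornithine carrier, was among those that rose (0.86 ± 0.16). Of 22 zinc transporters and metallothioneins 0 fell and 4.55% rose, both below the shares of all tested genes. The member that rose was the zinc importer SLC39A8 (0.43 ± 0.10), though not without vehicle library 1 (adjusted p = 0.0636). In this list 2 rose without estradiol library 2, and 3 rose and 3 fell with the block. Of 15 enzymes of estrogen metabolism HSD17B7 and SULT1A2, whose reads may be shared with SULT1A1, rose, and the sulfatase STS and the sulfotransferase SULT2B1 fell (4 and 6 with the block). In that list 0 rose without vehicle library 1 or 3 or estradiol library 2 or 3, 1 rose without estradiol library 1, 0 fell without estradiol library 1 and 1 fell without any 1 vehicle library or estradiol library 3.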
